A study of Homo sapiens with 6 samples.

Results

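The enzymes of serine synthesis and folate one-carbon metabolism were followed in MDA-MB-231 cells, an established human triple-negative breast cancer line. The members were 10 genes of the 58735 in the deposited count table, found by symbol, each on 1 row. They were PHGDH, PSAT1 and PSPH of cytosolic serine synthesis, the cytosolic folate enzymes SHMT1 and MTHFD1, and the mitochondrial folate enzymes SHMT2, MTHFD2, MTHFD2L, MTHFD1L and ALDH1L2. Transcripts were measured by RNA sequencing in 6 libraries. Cells of 3 libraries had been transfected with a DNAJC12 vector, written DNAJC12v in the labels, and carry the genotype label DNAJC12 overexpression. Cells of the other 3 had been transfected with empty vector and are labelled control. The labels do not say whether the transfection was transient or stable, whether a clone was picked, or whether the replicates were grown separately, so their spread may be technical. The members were chosen with their differences between these groups already known, so those differences and the calls made on them are given as a description.

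Serine is made in the cytosol from the glycolytic intermediate 3-phosphoglycerate. PHGDH oxidizes it, PSAT1 transfers an amino group from glutamate, and PSPH removes the phosphate. SHMT enzymes then move a carbon from serine to tetrahydrofolate and release glycine, SHMT1 in the cytosol and SHMT2 in mitochondria. In mitochondria MTHFD2 or MTHFD2L oxidizes the carbon and MTHFD1L releases it as formate, while ALDH1L2 can burn it to carbon dioxide with formation of NADPH. In the cytosol MTHFD1 carries the counterparts of the MTHFD2 and MTHFD1L steps in 1 protein and uses formate for purine and thymidylate synthesis. The serine enzymes and MTHFD2 are known targets of the stress factor ATF4, and MDA-MB-231 is known as a breast cancer line with little PHGDH.

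Total counts ran from 17967283 to 18887497 per library. DNAJC12 itself had 522, 523 and 492 counts in overexpression replicates 1 to 3, against 1, 0 and 0 counts with empty vector. VIM, CD44 and AXL, markers of this mesenchymal-like line, stood between 56.0 and 461 FPKM, and ESR1 and PGR had at most 3 counts in any library. CDH1 was low, with 47 to 102 counts. Of 3 leukocyte markers PTPRC, CD3E and CD68 none passed 2 counts, and endothelial CDH5 had at most 4, but PECAM1 had 110, 70 and 73 counts with overexpression and 423, 272 and 319 with empty vector. Luminal KRT18 was abundant, at 173 to 356 FPKM, and GATA3 had 68 to 86 counts. Overexpression replicate 2 stood apart from the other libraries: its TMM factor was 0.853, against 0.996 to 1.09 in the others, and its counted transcripts had a mean GC content of 54.0%, against 51.4% and 52.4% in overexpression replicates 1 and 3 and 52.0% to 53.4% with empty vector. In bulk RNA, fewer cells with a transcript and less transcript per cell cannot be told apart.

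The genes lie on 9 chromosomes, given here in GRCh38 as in the deposited table. PHGDH (ENSG00000092621) spans 119648411 to 119744226 on the plus strand of chromosome 1, PSAT1 (ENSG00000135069) 78297143 to 78330093 on the plus strand of chromosome 9 and PSPH (ENSG00000146733) 56011051 to 56051604 on the minus strand of chromosome 7. SHMT1 (ENSG00000176974) spans 18327860 to 18363563 on the minus strand of chromosome 17, and MTHFD1 (ENSG00000100714) 64388031 to 64463457 on the plus strand of chromosome 14. Of the mitochondrial enzymes, SHMT2 (ENSG00000182199, plus strand, 57229327 to 57234935) and ALDH1L2 (ENSG00000136010, minus strand, 105019784 to 105084577) share chromosome 12. MTHFD2 (ENSG00000065911) spans 74198562 to 74217565 on the plus strand of chromosome 2, MTHFD2L (ENSG00000163738) 74114174 to 74303099 on the plus strand of chromosome 4 and MTHFD1L (ENSG00000120254) 150865549 to 151101887 on the plus strand of chromosome 6.

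RefSeq promoter windows of 300 bases, 250 before a start site and 50 from it, were available for 7 of the 10 genes in GRCh38.p14, in 11 windows, since MTHFD1L has 4 and MTHFD2L 2. PSPH, SHMT2 and ALDH1L2 were not among them. Shown are the parts before the start that lie outside every GENCODE exon of the gene, for the serine enzyme PSAT1 and the mitochondrial MTHFD2, both higher with DNAJC12, and for the cytosolic SHMT1, which was not. For MTHFD1L the 30 bases around a motif match are shown. Capitals mark that match.
PSAT1, chr9:78296875-78297124, plus strand: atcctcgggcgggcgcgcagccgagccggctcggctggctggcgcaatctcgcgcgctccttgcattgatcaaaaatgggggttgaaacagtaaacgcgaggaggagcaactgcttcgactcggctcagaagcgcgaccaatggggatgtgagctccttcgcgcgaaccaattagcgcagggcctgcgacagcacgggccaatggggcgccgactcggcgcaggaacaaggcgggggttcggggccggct
MTHFD2, chr2:74198365-74198561, plus strand: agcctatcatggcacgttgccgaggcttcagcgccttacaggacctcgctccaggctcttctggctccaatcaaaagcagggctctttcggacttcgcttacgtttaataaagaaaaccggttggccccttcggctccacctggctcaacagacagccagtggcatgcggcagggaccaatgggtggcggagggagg
SHMT1, chr17:18363564-18363800, minus strand: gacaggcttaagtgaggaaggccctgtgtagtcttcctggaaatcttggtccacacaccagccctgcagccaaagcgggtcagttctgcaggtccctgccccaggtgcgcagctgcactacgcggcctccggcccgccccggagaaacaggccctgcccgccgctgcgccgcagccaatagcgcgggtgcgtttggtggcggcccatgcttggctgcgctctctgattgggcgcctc
MTHFD1L, chr6:150866346-150866375, plus strand: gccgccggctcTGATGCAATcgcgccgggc

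The motifs were searched on both strands of the whole windows. The first was the C/EBP-ATF composite element TGATGNAAN, which ATF4 can bind. The second was the antioxidant response element core TGACNNNGC, which NFE2L2 can bind. The last was the E-box CACGTG, which MYC can bind. The composite element occurred in 1 of the 7 genes, MTHFD1L, in 3 of its 4 overlapping or alternative windows and at 1 genomic place, beside 3.61% of all 35116 promoter windows. The antioxidant core occurred in MTHFD2 and MTHFD2L, after the start in both and in 2 of the 11 windows, beside 13.3% of all windows. The E-box occurred in MTHFD1 and MTHFD1L, in 4 of the 11 windows, beside 7.26% of all windows. Its MTHFD1L matches lie at 1 genomic place in overlapping windows, so those windows are not separate. None of these matches overlapped another motif. A match describes letters only, and these windows leave out introns and more distant sequence.

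Per length, SHMT2 was the most abundant member and ALDH1L2 the scarcest in both groups. Levels between genes are given in FPKM, the deposited counts scaled by the length of all annotated exons and by library depth, so a long exon model such as that of PHGDH (9217 bases) lowers the value. With DNAJC12 the order was SHMT2 (169.7 ± 52.9 FPKM, SD, n = 3), PSAT1 (154 ± 33.6), PSPH (35.6 ± 4.98), MTHFD2 (25.2 ± 7.08), MTHFD1L (19.5 ± 1.68), MTHFD1 (9.96 ± 0.28), PHGDH (6.44 ± 1.63), SHMT1 (3.55 ± 1.10), MTHFD2L (0.665 ± 0.282) and ALDH1L2 (0.0285 ± 0.0162). With empty vector it was SHMT2 (73.4 ± 3.19 FPKM), PSAT1 (34.8 ± 3.64), PSPH (14.5 ± 0.671), MTHFD1 (11.5 ± 0.933), MTHFD1L (11 ± 0.707), MTHFD2 (10.3 ± 1.34), SHMT1 (5.05 ± 0.520), PHGDH (0.994 ± 0.0424), MTHFD2L (0.746 ± 0.0569) and ALDH1L2 (0.0252 ± 0.0058). Neighbours whose libraries overlapped were SHMT2 with PSAT1 and MTHFD2 with MTHFD1L in overexpression, and MTHFD1 with MTHFD1L and MTHFD1L with MTHFD2 in empty vector. The first enzyme of serine synthesis was thus the scarcest of the 3 serine enzymes in every library. PHGDH stood above 63.9% of the tested genes with DNAJC12 and above 28.5% with empty vector, while SHMT2 stood above 98.1% and 95.6%.

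**Figure D1:**
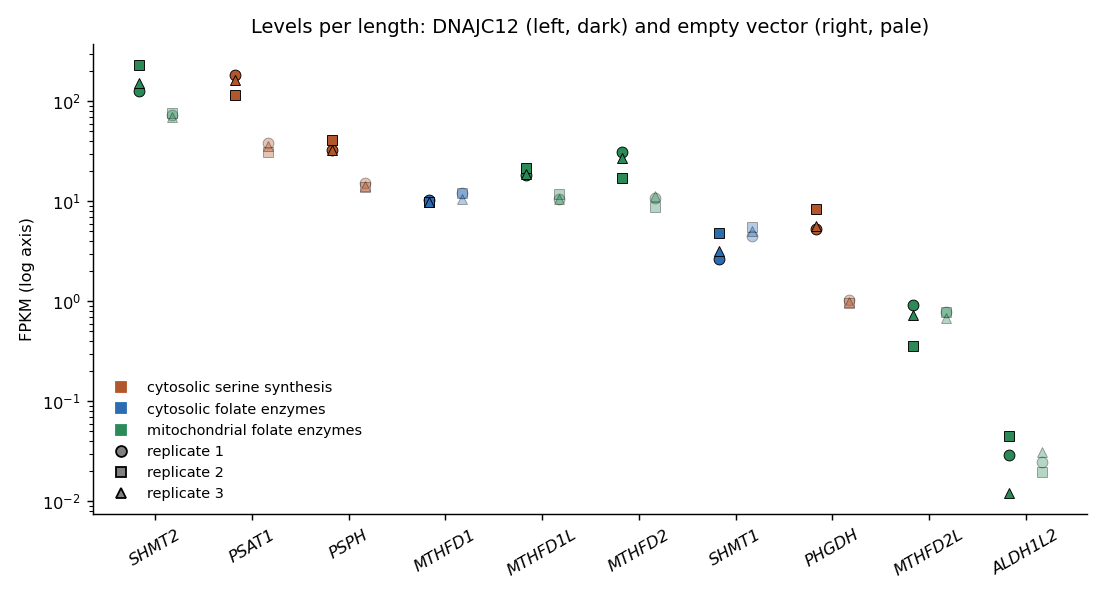
FPKM of each enzyme on a log axis, with DNAJC12 on the left in dark and empty vector on the right in pale, 1 symbol per library, genes ordered by their empty vector mean. PHGDH lies near 1 FPKM with empty vector and between 5.30 and 8.31 FPKM with DNAJC12, and ALDH1L2 lies under 0.05 FPKM in every library.

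All 3 serine synthesis enzymes were higher with DNAJC12, PHGDH most. Differences within a gene are given in CPM, counts scaled to a common library size with the TMM method of edgeR, and fold changes are overexpression over empty vector. PHGDH had 49.5, 76.7 and 53.6 CPM in overexpression replicates 1 to 3, against 9.70, 8.83 and 9.10 CPM with empty vector. All overexpression libraries lay far above the empty vector libraries, which were close together, and the edgeR log2 fold change was 2.70 ± 0.25 (SE), a 6.50-fold higher level. PSAT1 had 403, 255 and 363 CPM with DNAJC12, against 84.3, 67.7 and 77.8 CPM with empty vector. Replicate 2 was the lowest library of its group in both, the groups did not overlap, and the log2 fold change was 2.15 ± 0.24 (SE), or 4.44-fold. PSPH had 91.2, 114 and 92.1 CPM with DNAJC12 and 42.6, 38.5 and 39.9 CPM with empty vector. Its groups did not overlap either, and its log2 fold change was 1.30 ± 0.20 (SE), or 2.46-fold. The order of the fold changes followed the order of the steps, from PHGDH through PSAT1 to PSPH, though whether the 3 differ from each other was not tested.

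The pathway's composition differed as well. The summed level of the 3 serine enzymes was 219.6, 166 and 202 FPKM with DNAJC12 and 54.4, 45.8 and 50.8 FPKM with empty vector. PHGDH made up 2.41%, 5% and 2.84% of that sum with DNAJC12 and 1.91%, 2.09% and 1.94% with empty vector. PSAT1 supplied most of it in every library, 70.1% to 82.8% with DNAJC12 and 67.5% to 70.1% with empty vector. Within a library, the FPKM ratio of PSPH to PHGDH was 6.14, 4.98 and 5.74 with DNAJC12 and 14.7, 14.5 and 14.6 with empty vector. The empty vector ratios lay within 0.2 of each other and did not overlap those of overexpression. The ratio of PSAT1 to PHGDH was 34.3, 14.0 and 28.5 with DNAJC12 and 36.6, 32.3 and 36.0 with empty vector, groups that overlapped. PSPH has an unprocessed copy, PSPHP1, which was given 154, 110 and 129 counts with DNAJC12 and 198, 99 and 112 with empty vector, 10.5% of the PSPH counts in all, so reads of the pair may be split. The 4 processed PSAT1 copies in the table had 0 counts.

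**Figure D2:**
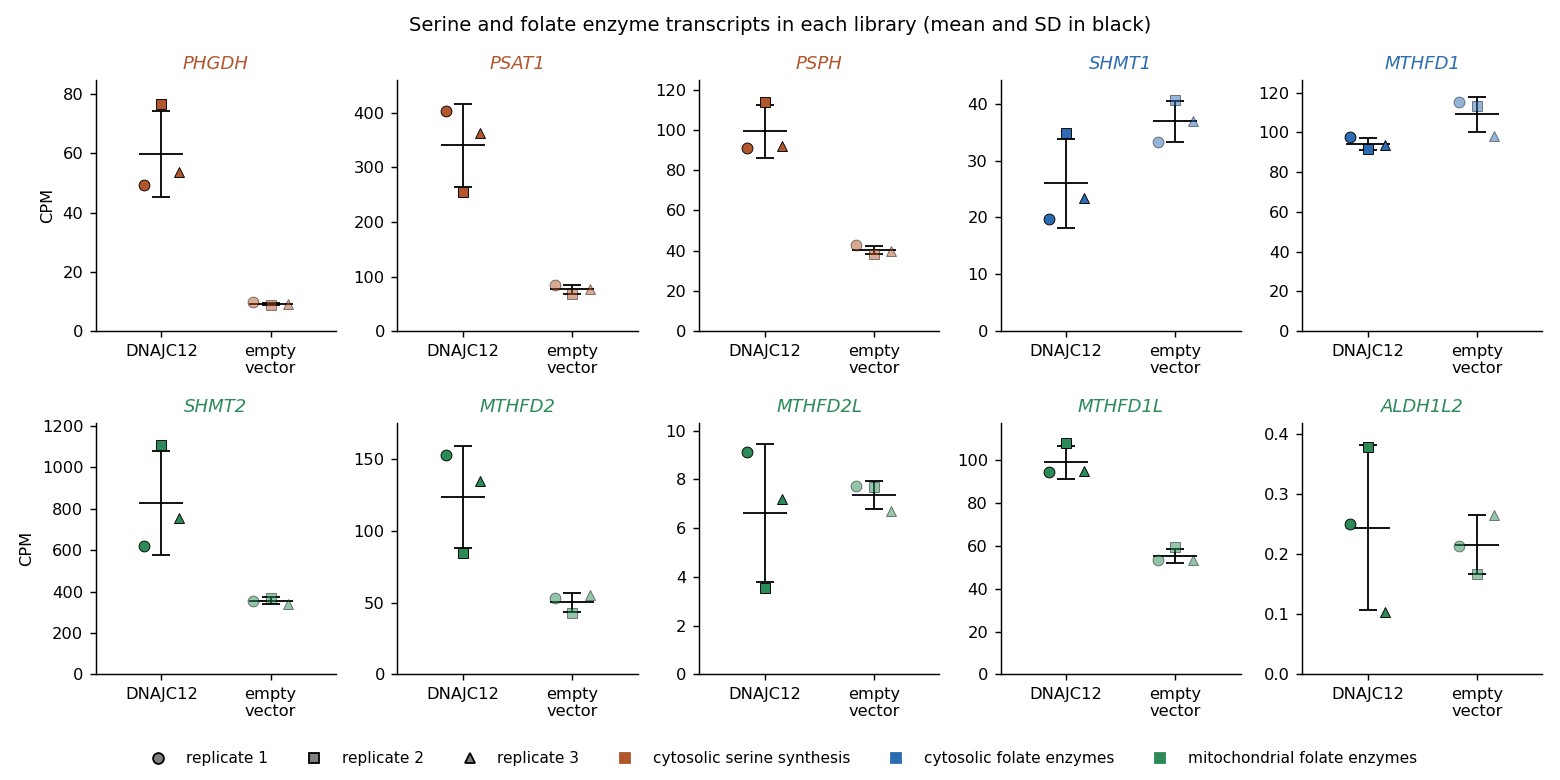
CPM of the 10 enzymes, 1 panel per gene with an axis from 0, overexpression left of empty vector, 1 symbol per library and the mean with its SD in black. The groups are apart for PHGDH, PSAT1, PSPH, SHMT2, MTHFD2 and MTHFD1L, which are higher with DNAJC12, while SHMT1, MTHFD2L and ALDH1L2 overlap and MTHFD1 lies narrowly lower.

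The cytosolic folate enzymes were not higher. SHMT1 had 19.8, 34.9 and 23.5 CPM with DNAJC12 and 33.3, 40.6 and 36.9 CPM with empty vector. Overexpression replicates 1 and 3 lay below all empty vector libraries and replicate 2 among them, and the log2 fold change was -0.50 ± 0.26 (SE), which was not called. Without overexpression replicate 2 it was -0.77 and was called, as it was at -0.71 without both libraries numbered 2 and at -0.47 with a correction for GC content. MTHFD1 had 97.7, 91.7 and 93.6 CPM with DNAJC12, against 115, 113 and 98.4 CPM with empty vector. The groups did not overlap, but the nearest libraries were less than 1 CPM apart, and the log2 fold change of -0.20 ± 0.19 (SE) was not called under any setting run. SHMT1 shares 3.69% of its exonic bases with other genes, chiefly SMCR8 on the opposite strand, which had 6209 counts over the 6 libraries, and MTHFD1 shares 11% with antisense genes and ZBTB25. The strand setting of the counting is not given in the sources used here, so reads of such stretches cannot be assigned with certainty.

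Of the mitochondrial folate enzymes, SHMT2, MTHFD2 and MTHFD1L were higher and MTHFD2L was not. SHMT2, the mitochondrial serine hydroxymethyltransferase, had 621, 1108 and 755 CPM with DNAJC12 and 357, 371 and 342 CPM with empty vector. The groups did not overlap, replicate 2 was the highest, and the log2 fold change was 1.22 ± 0.24 (SE), or 2.32-fold. MTHFD2, a methylene-tetrahydrofolate dehydrogenase and cyclohydrolase, had 153, 84.4 and 135 CPM with DNAJC12, against 53.2, 42.6 and 55.1 CPM with empty vector. Here replicate 2 was the lowest of both groups, the groups again did not overlap, and the log2 fold change was 1.30 ± 0.26 (SE), or 2.47-fold. MTHFD1L, the formate-releasing synthetase, had 94.4, 108 and 95.0 CPM with DNAJC12 and 53.6, 59.3 and 53.4 CPM with empty vector. All 3 overexpression libraries lay above the highest empty vector library, with a log2 fold change of 0.84 ± 0.19 (SE), or 1.79-fold, which was not called over all genes. MTHFD2 shares 33.2% of its exonic bases with opposite-strand genes, mostly SLC4A5, which had 16 counts in all 6 libraries together, and its 7 processed copies had 2 counts in all.

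MTHFD2L and ALDH1L2 showed no such rise. MTHFD2L, the paralogue of MTHFD2 with the same reactions, had 9.11, 3.54 and 7.20 CPM with DNAJC12 and 7.72, 7.67 and 6.71 CPM with empty vector. The groups overlapped, with overexpression replicates 1 and 2 on opposite sides of all empty vector libraries, and the log2 fold change was -0.15 ± 0.35 (SE). It was 0.15 without overexpression replicate 2 and 0.17 without both libraries numbered 2, so no direction can be given. ALDH1L2 had 5, 6 and 2 counts with DNAJC12 and 4, 3 and 5 counts with empty vector. A floor of 3 counts per library, which covers counting error only, corresponds to 0.150 to 0.189 CPM, and ALDH1L2 was too close to it to be tested or to give a fold. It also overlaps C12orf45 on the opposite strand, which had 748 counts over the 6 libraries. Its cytosolic counterpart ALDH1L1 had 30, 80 and 46 counts with DNAJC12 and 45, 42 and 40 with empty vector, groups that overlapped.

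Among the 14520 genes tested with the edgeR quasi-likelihood test at a Benjamini-Hochberg adjusted p under 0.05, 9 of the 10 members were included and 5 were called higher. These were PHGDH, PSAT1, PSPH, SHMT2 and MTHFD2, beside 0.585% of all tested genes called higher. None was called lower, beside 0.661% of all, so 5 of 9 were called in either direction beside 1.25%. By unadjusted edgeR p below 0.05 there were 6 higher members, beside 7.25% of all genes, and 0 lower, beside 6.86%. The DESeq2 Wald test called 6 higher, beside 1.99%, and 0 lower, beside 1.9%. The CPM of the groups did not overlap in 6 members that were higher, against 9.26% of all tested genes, and in 1 that was lower, against 10.8%, or 20.1% in either direction. Since the members were chosen on this contrast, these counts describe them and support nothing further. By place, the median log2 fold change was 2.15 over the 3 serine enzymes, -0.35 over the 2 cytosolic folate enzymes and 1.03 over the 4 tested mitochondrial enzymes, beside 0.05 over all tested genes. PHGDH and PSAT1 were called in all 16 alternatives. When overexpression replicate 3 or any single empty vector library was left out, PSPH, SHMT2 and MTHFD2 lost their calls and 2 members stayed called. In those fits their log2 fold changes stayed between 1.18 and 1.38. SHMT2 also lost its call with DESeq2 size factors, MTHFD2 with a filter of 1 CPM in 3 libraries, and both with limma on log2 FPKM. MTHFD1L was called with the DESeq2 Wald test, with no filter, with the replicate block and with GC correction. It was also called in the fits that left out overexpression replicate 2 or both libraries numbered 2.

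**Figure D3:**
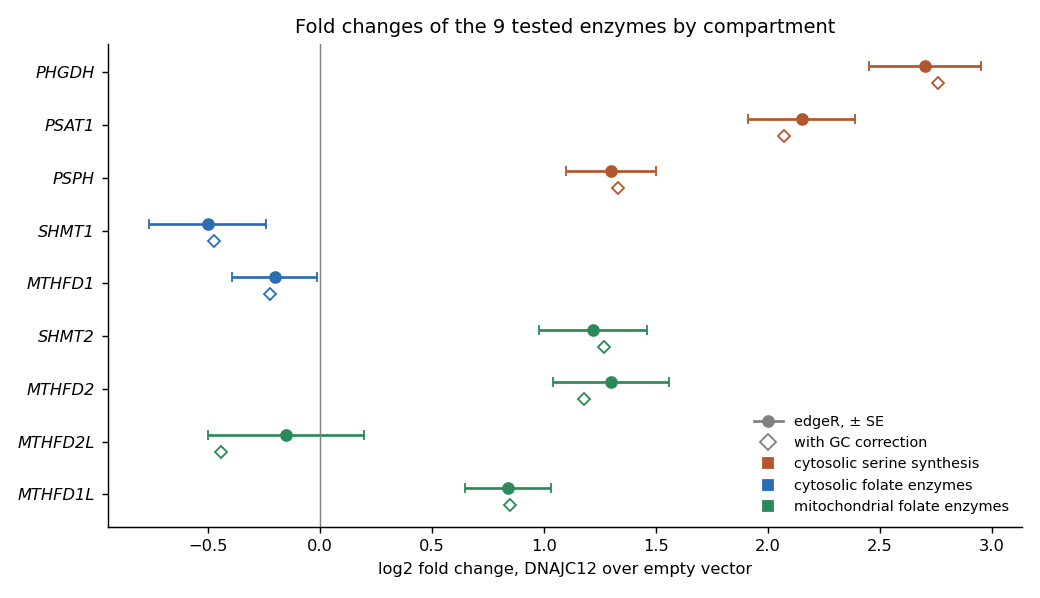
Log2 fold change of the 9 tested enzymes, overexpression over empty vector, as filled points with the edgeR SE, and with GC correction as open diamonds, grouped by colour into serine, cytosolic folate and mitochondrial folate enzymes. PHGDH is the highest at 2.70, the cytosolic SHMT1 and MTHFD1 lie below 0 at -0.50 and -0.20, and the correction moves MTHFD2L from -0.15 to -0.44.

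The paralogous pair SHMT2 and SHMT1 gave the largest difference between compartments among the ratios taken within a library, which removes library size. The FPKM ratio of SHMT2 to SHMT1 was 47.3, 47.9 and 48.3 with DNAJC12, against 16.1, 13.8 and 14.0 with empty vector. The overexpression libraries lay within 1 unit of each other, at 47.8 ± 0.486 (SD, n = 3), and at least 2.94 times above any empty vector library, whose mean was 14.6 ± 1.29 (SD, n = 3). The difference of the mean log2 ratio was 1.71, also without overexpression replicate 2. Replicate 2 did not stand apart in this ratio, although both genes were higher there: each lay 0.69 on the log2 scale above the mean of overexpression replicates 1 and 3, and their GC contents were 57.4% and 53.1%. A ratio within a library does not remove a trend with GC content. Tested genes of like GC content had median gaps of 0.65 for SHMT2 and 0.38 for SHMT1. After GC correction the gaps of SHMT2 and SHMT1 themselves were 0.13 and 0.38.

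Other ratios were also higher with DNAJC12, with wider spread among the overexpression libraries. The ratio of MTHFD1L to MTHFD1 was 1.80, 2.20 and 1.89 with DNAJC12 and 0.872, 0.982 and 1.01 with empty vector. It is taken per exonic length, 5021 bases for MTHFD1L and 9377 for MTHFD1. Without length, MTHFD1L had 94.4, 108 and 95.0 CPM and MTHFD1 97.7, 91.7 and 93.6 CPM with DNAJC12. With empty vector MTHFD1L, at 53.6, 59.3 and 53.4 CPM, lay below MTHFD1, at 115, 113 and 98.4 CPM. Which gene stood higher thus depends on the lengths used, while the difference between groups does not. MTHFD2, MTHFD2L and MTHFD1L together were 4.91, 4.01 and 4.75 times MTHFD1 with DNAJC12 and 1.83, 1.77 and 2.16 times with empty vector. Within mitochondria, and so not a contrast of compartments, the ratio of MTHFD2 to MTHFD2L was 33.9, 48.1 and 37.9 with DNAJC12. With empty vector it was 13.9, 11.2 and 16.6, a difference of 1.53 in mean log2 ratio. That difference was 1.38 without overexpression replicate 2 and 1.24 without both libraries numbered 2. Neither pair's ratios overlapped between groups. The 5 mitochondrial enzymes summed to 177, 268 and 200.3 FPKM with DNAJC12 and 95.1, 98.1 and 93.0 FPKM with empty vector, and the 2 cytosolic folate enzymes to 13.0, 14.5 and 13.0 FPKM and 16.6, 17.6 and 15.5 FPKM. Their ratio was 13.7, 18.4 and 15.4 with DNAJC12 and 5.71, 5.58 and 6 with empty vector, a difference of 1.45 in mean log2 ratio. Without overexpression replicate 2 it was 1.33, and with every enzyme weighted equally it was 0.98. The equal weighting includes ALDH1L2, which was too close to the floor to give a fold. The cytosolic serine enzymes, which were also higher with DNAJC12, are not part of this ratio. SHMT2 alone supplied 71.5% to 85.4% of the mitochondrial sum with DNAJC12 and 75.7% to 78.2% with empty vector. With 3 libraries a group an exact permutation test could not go below a p of 0.1, and these ratios come from the contrast the genes were chosen on, so none was run.

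**Figure D4:**
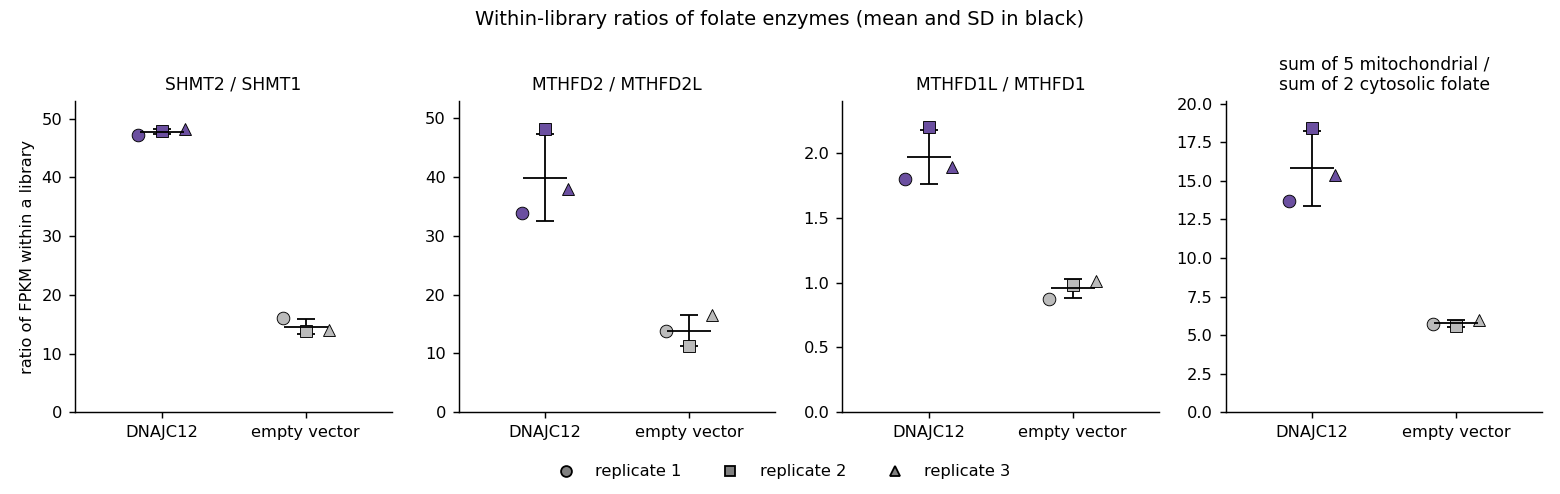
FPKM ratio within each library for 3 enzyme pairs and for the sum of the 5 mitochondrial over the 2 cytosolic folate enzymes, overexpression left of empty vector, 1 symbol per library, mean and SD in black, axes from 0. The groups are apart in all 4 panels, and the SHMT2 to SHMT1 ratio spans only 47.3 to 48.3 with DNAJC12.

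Overexpression replicate 2 differed from replicates 1 and 3 in a way that followed GC content. Its log2 CPM gap to the mean of the other overexpression libraries was -1.17 for MTHFD2L (38.2% GC), -0.77 for MTHFD2 (43.1%) and -0.58 for PSAT1 (43.7%). It was -0.06 for MTHFD1 (47.9%), 0.19 for MTHFD1L (50.1%), 0.32 for PSPH (51.2%), 0.69 for SHMT1 (53.1%), 0.57 for PHGDH (56.2%) and 0.69 for SHMT2 (57.4%). Tested genes within 2 percentage points of each member's GC content had median gaps of -1.17, -0.84, -0.77, -0.19, 0.10, 0.21, 0.38, 0.59 and 0.65, in the same order. The sign was shared in 9 of 9 members, and the largest excess over those genes was 0.31, for SHMT1. Empty vector replicate 2 moved less, with gaps of -0.34 to 0.21 to the other empty vector libraries. Over all tested genes its gap also rose with GC content. Its median was -0.454 in genes of the lowest GC content (median 37.5%) and 0.344 in those of the highest (65.6%). For overexpression replicate 2 these medians were -1.203 and 0.772. The spread within overexpression was wider than within empty vector in 8 of the 9 tested members. The coefficient of variation was, for example, 24.4% against 4.81% for PHGDH and 30.4% against 4.14% for SHMT2. MTHFD1 was the exception at 3.27% against 8.24%. The share of all tested genes with a wider spread is not given here, and the cause was not tested. After GC correction the gaps ran from -0.01 to 0.38, and the fold changes of the 5 called members were 2.76, 2.07, 1.33, 1.27 and 1.18 for PHGDH, PSAT1, PSPH, SHMT2 and MTHFD2. In that fit 6 members were called higher, MTHFD1L being added, and SHMT1 lower, beside 10.4% of all genes called higher and 9.87% lower. Leaving out overexpression replicate 2 gave 2.48 for PHGDH, 2.32 for PSAT1, 1.18 for PSPH, 0.95 for SHMT2, 1.52 for MTHFD2 and 0.77 for MTHFD1L. The same 7 members were called in that fit, 6 higher beside 12.1% of all genes and SHMT1 lower beside 10.4%. Leaving out both libraries numbered 2 gave 6 higher beside 10.3% and 1 lower beside 8.41%.

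**Figure D5:**
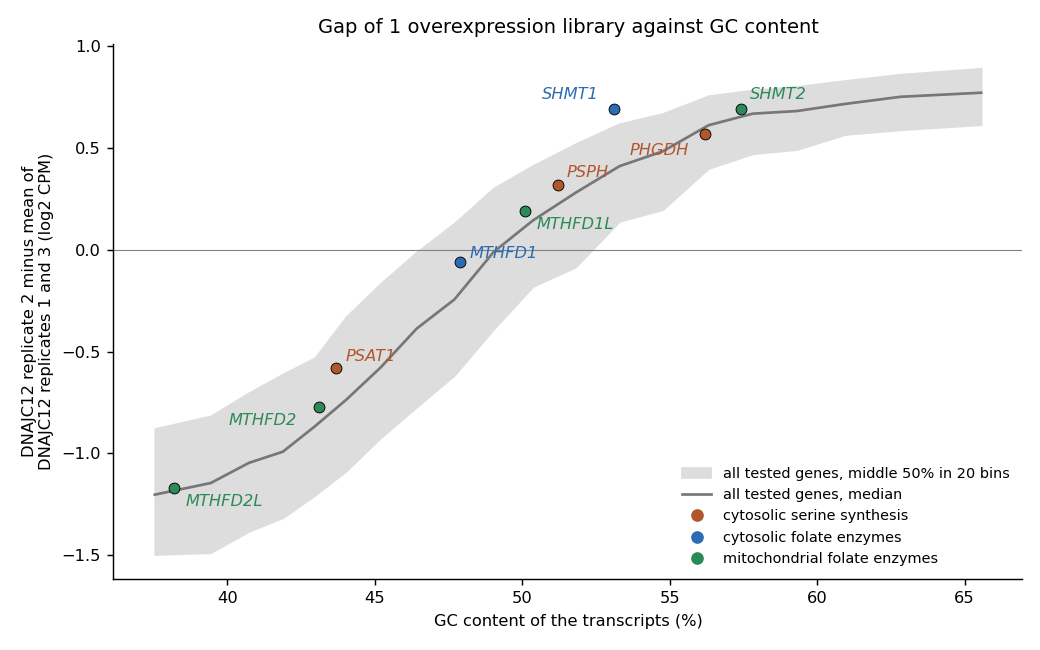
Gap in log2 CPM of overexpression replicate 2 to the mean of overexpression replicates 1 and 3, against the GC content of each gene's transcripts in percent. Coloured points are the 9 tested enzymes, the line is the median and the band the middle 50% of all tested genes in 20 bins of GC content. All enzymes but SHMT1, which lies above the band, lie within it, from MTHFD2L at -1.17 to SHMT2 at 0.69.

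The genes whose profile over the 6 libraries lay closest to PHGDH were looked for among 12470 other tested protein-coding genes, by the root mean square difference of centred log2 CPM. They were SLC1A4, a neutral amino acid transporter that carries serine (0.04), ADM2, a calcitonin family hormone (0.21), NUPR1, a stress-induced chromatin protein (0.22), TRIB3, a stress-induced pseudokinase (0.24), and SCD, a fatty acid desaturase (0.24). SLC1A4 had 34.7, 51.4 and 34.5 CPM with DNAJC12 and 6.54, 6.17 and 6.17 CPM with empty vector, with replicate 2 the highest in overexpression, as for PHGDH. None of the other members was as close to PHGDH: the nearest was PSAT1 at 0.48. Closest to MTHFD2 were ZNF460 (0.09), CLDN1, C6orf120, AMIGO2 and DKK1 (0.11 each), all lowest in overexpression replicate 2 among the overexpression libraries. A profile over 6 libraries holds both the group difference and the GC trend, and likeness says nothing of a shared role.

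Around these enzymes, 51 related genes in 7 groups, listed with earlier results of these data known, were examined in the same fit. Calls and p-values on them are therefore given as a description. Of 40 tested, 3 were called higher and none lower, beside 0.585% and 0.661% of all tested genes. Without adjustment, edgeR p-values below 0.05 were found for 8 higher and 1 lower genes, beside 7.25% and 6.86%. The DESeq2 Wald test called 4 higher and 0 lower, beside 1.99% and 1.9%. The median log2 fold change of the 40 related genes was 0.09, beside 0.05 over all tested genes. All 3 were plasma membrane carriers of serine, glycine or neutral amino acids, among 11 tested genes of serine and glycine transport and use whose median was -0.02. SLC1A4 rose by 2.67 ± 0.26 (SE), with an edgeR Benjamini-Hochberg adjusted p of 0.00194. The glycine transporter SLC6A9 had 55.7, 90.4 and 61.3 CPM with DNAJC12 and 18.4, 21.3 and 15.3 CPM with empty vector. It rose by 1.91 ± 0.26 (SE) on the log2 scale, edgeR adjusted p = 0.0116, and lost its call when overexpression replicate 3 (adjusted p 0.0575), empty vector replicate 1 (0.0931) or empty vector replicate 3 (0.0898) was left out. The neutral amino acid exchanger SLC1A5 had 513, 947 and 617 CPM with DNAJC12 and 215, 267 and 261 CPM with empty vector. It rose by 1.49 ± 0.26 (SE), edgeR adjusted p = 0.0310, and lost its call when overexpression replicate 3 (adjusted p 0.129) or an empty vector library (0.123 to 0.193) was left out. It shares 23.8% of its exonic bases with opposite-strand genes. SFXN1, the mitochondrial serine carrier, had 71.7, 55.6 and 74.0 CPM with DNAJC12 and 77.3, 82.4 and 84.9 CPM with empty vector, a log2 fold change of -0.28 ± 0.20 (SE) that was not called. CBS, which condenses serine with homocysteine and has a near-identical copy in GRCh38, is listed at 0 in every library.

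No gene of the other folate, glycine, methionine and purine groups was called in the edgeR fit of all 6 libraries without GC correction. Of 4 tested folate transport and retention genes the median log2 fold change was -0.25, and the most abundant were FPGS, which adds glutamates to folate (0.42 ± 0.29 SE), and GGH, which removes them (-0.09 ± 0.29 SE). The FPGS value was 0.05 without overexpression replicate 2, and with GC correction it was 0.43 and called higher (edgeR adjusted p 0.0107). Of 8 tested folate reduction and other folate enzymes the median was 0.06, with TYMS, thymidylate synthase, at -0.05 ± 0.19 (SE, 46.6% of its exonic bases shared, mostly with opposite-strand ENOSF1). Glycine cleavage had 2 tested genes, DLD (0.20 ± 0.33 SE) and GCSH (-0.69 ± 0.54 SE), while GLDC and AMT had at most 8 counts in any library. Of 6 tested methionine cycle genes the median was 0.34, with AHCY at -0.02 ± 0.26 (SE) and the methionine adenosyltransferase MAT2A at 0.67 ± 0.19 (SE). MAT2A had 187, 195 and 200.3 CPM with DNAJC12 and 133, 122 and 111 CPM with empty vector, and it was called higher with GC correction, with the replicate block and in the fits that left out overexpression replicate 2 or both libraries numbered 2. Of 6 purine synthesis genes, whose pathway takes up folate-borne carbon, the median was 0.01, with PAICS at -0.22 ± 0.24 (SE) and ATIC at 0.11 ± 0.21 (SE). With GC correction GART was called higher (0.38, edgeR adjusted p 0.0183) and PPAT lower (-0.59, edgeR adjusted p 0.0329). Leaving out 1 library moved PAICS to -0.04 (overexpression replicate 2), -0.05 (empty vector replicate 1), -0.34 (empty vector replicate 2) or -0.39 (overexpression replicate 1).

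Of the 3 regulators listed, ATF4, MYC and NFE2L2, none was called. ATF4 had 594, 690.3 and 684 CPM with DNAJC12 and 375, 402 and 402 CPM with empty vector. Its groups did not overlap, its log2 fold change was 0.74 ± 0.18 (SE), and its edgeR Benjamini-Hochberg adjusted p was 0.0923. MYC had 446, 441 and 470.4 CPM with DNAJC12 and 264, 319 and 326 CPM with empty vector, a log2 fold change of 0.58 ± 0.19 (SE) with an edgeR adjusted p of 0.192. NFE2L2 had 87.3, 30.6 and 57.1 CPM with DNAJC12 and 42.1, 23.9 and 32.1 CPM with empty vector, groups that overlapped, and a log2 fold change of 0.84 ± 0.37 (SE). With GC correction its value was 0.69 and it was called higher (edgeR adjusted p 0.0151). ATF4 and MYC were called higher with GC correction, with the replicate block and in the fits that left out overexpression replicate 2 or both libraries numbered 2, and ATF4 also by the DESeq2 Wald test.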

How the data were processed

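Counts of reads per gene and FPKM values were deposited by the authors for 6 libraries. HISAT2 2.0.5 and the build hg19 are named in the submitters' processing notes, but the coordinates of all 58735 genes equal GENCODE 29 on GRCh38. The counting program is not given in the sources used here. The deposited FPKM equalled count per exonic length and per 1 depth a library, 0.854 to 1.10 times its total count.

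Counts were tested with edgeR 4.0.16 in R 4.3.3 (quasi-likelihood, TMM, filterByExpr with minimum count 10 and total 15, robust), with Benjamini-Hochberg adjustment over 14520 genes and a threshold of 0.05. Genes not tested held 0.129% of counts. Log2 CPM used a prior count of 2. GC content is that of GENCODE 29 transcripts, removed as a loess trend (span 0.3) in 1 alternative. Other alternatives used DESeq2 1.42.0, limma 3.58.1 on log2 FPKM, other filters, a replicate block and fewer libraries. Only the main edgeR fit was tried on simulated counts, which held known changes but no GC trend between libraries. The other steps were not tried in this way. Libraries of a group differed by more than counting noise. Pseudocounts on FPKM understate changes of low genes.

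Members and lists were chosen with earlier results of these data known. Named were all members, of each related list up to 4 called genes or, with fewer than 2 called, its 2 most abundant, and the 5 genes nearest in profile to PHGDH and to MTHFD2. SFXN1, CBS, ALDH1L1, GLDC, AMT, GART, PPAT, NFE2L2, DMGDH and SARDH were named after their values were seen. Protein sequences were not used here. 1 gene that the naming rule selects is not reported here.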

Additional observations from a re-analysis of the deposited data

How the results depend on the processing

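The number of genes called depended on the fit more than the fold changes did. Against 85 genes called higher and 96 lower, the DESeq2 Wald test called 289 and 276, no filter 366 and 322, GC correction 1504 and 1433, the fit without both libraries numbered 2 1514 and 1240, and limma on unfiltered log2 FPKM 21 and 18. Leaving out 1 library gave 15 to 1805 higher and 6 to 1560 lower. Of the members, 2 to 6 were then called higher and 0 to 1 lower. Limma on filtered log2 FPKM with a pseudocount of 1 called 3 members higher and 0 lower, beside 86 and 94 of 12784 genes. With a pseudocount of 0.1 it also called 3 members higher and 0 lower, beside 83 and 82 genes. Without a filter it called 2 members higher and 0 lower. SHMT1 was the 1 member called lower with GC correction and without both libraries numbered 2. Of the related genes 1 to 10 were called higher and 0 to 3 lower without 1 library. The most, 10 and 3 of 42, were called without overexpression replicate 2, beside 12.1% and 10.4% of all genes. With GC correction 10 and 3 of 40 were called, beside 10.4% and 9.87%. Without both libraries numbered 2 it was 8 and 3 of 42, beside 10.3% and 8.41%. Unfiltered limma called 1 higher. The cause of these shifts was not tested.

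Replicate numbers are shared by the groups, and the labels give no pairing. Deviations from the group means correlated at 0.45, 0.58 and 0.03 for numbers 1 to 3. Whether samples of the same number share a batch was not tested. With the replicate block 1011 genes were called higher and 926 lower, and 8 and 1 of the related genes. Overexpression replicates 1 and 2 correlated best with their own number, and overexpression replicate 3 with empty vector replicate 1 (0.22). Deviations within a group cancel for each gene, so these correlations are not separate observations. Overexpression replicate 1 correlated at -0.58 with empty vector replicate 2, and overexpression replicate 2 at -0.46 with empty vector replicate 1. Both libraries numbered 2 also had gaps that rose with GC content.

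The difference of 1.45 in log2 ratio between the 5 mitochondrial and the 2 cytosolic folate enzymes ran from 1.33 to 1.55 without 1 library. It was 0.98 with equal weights, which count the barely detected ALDH1L2 as much as any other mitochondrial enzyme. The cytosolic serine enzymes are not part of this ratio. Their mean summed FPKM was 3.89 times the empty vector value, beside 2.25 times for the mitochondrial enzymes. Directions turned for MTHFD2L (0.15 and 0.17) and GGH (0.17 and 0.11) without overexpression replicate 2 and without both libraries numbered 2, and for ATIC (-0.02 and -0.03) in the same fits. DLD turned without overexpression replicate 1 (-0.21) and with GC correction (-0.04), and GCSH without empty vector replicate 1 (0.11). AHCY turned without overexpression replicate 1 (0.14) or 3 (0.08), without empty vector replicate 2 (0.02) and with GC correction (0.02). Without 1 library their log2 fold changes reached -0.46 for MTHFD2L, -0.35 for GGH, 0.20 for ATIC, 0.47 for DLD, -1.06 for GCSH and -0.35 for AHCY at the other end. The other 8 tested members kept their direction in 16 alternatives. Depth limits ALDH1L2, with at most 6 counts a library, and to a lesser degree MTHFD2L.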

Other observations

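DMGDH and SARDH, mitochondrial flavoproteins that oxidize dimethylglycine and sarcosine and pass a carbon to tetrahydrofolate, were singled out after their values were seen. SARDH had 24.5, 48.0 and 30.6 CPM with DNAJC12, against 17.7, 23.3 and 18.7 CPM with empty vector. The groups did not overlap, and the log2 fold change of 0.79 ± 0.29 (SE) had an edgeR Benjamini-Hochberg adjusted p of 0.256. With GC correction it was 0.81 and called higher (edgeR adjusted p 0.00108). DMGDH had 20, 2 and 16 counts with DNAJC12 and 1, 5 and 0 counts with empty vector, too few to be tested in the fit of all libraries.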
